A study of Drosophila melanogaster with 3 samples.

Results

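The larval fat bodies with raised Hippo kinase (Dcg > Hpo) were set directly against those with reduced Hippo kinase (Dcg > Hpo-RNAi), with the driver-only control (Dcg/+) given beside the pair but used as no denominator. A gene entered the comparison when it had 50 or more read counts in either library, which held for 9256 of 16509 gene rows, 56.1% of them. The series measured RNA of Drosophila melanogaster larval fat tissue by 3′ mRNA sequencing (QuantSeq), with 1 library for each of the 3 genotypes. All 3 genotypes carried the Dcg-Gal4 driver, in Dcg/+ without a target, in Dcg > Hpo with a UAS-hpo transgene and in Dcg > Hpo-RNAi with an RNA hairpin against hpo. Dcg-Gal4 is a collagen gene driver that is active in the fat body and is known to be active in blood cells as well. Per the study's methods each library pooled the fat bodies of many larvae, while the sample labels describe the extraction of adult heads. The direct pair spans the whole range of hpo dose in the series, and the question was which genes differed between its ends.

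Hippo (hpo) is a serine/threonine kinase of the pathway that restrains tissue growth. With its partner Salvador it activates the kinase Warts, which phosphorylates the co-activator Yorkie and keeps it out of the nucleus, where Yorkie and Scalloped otherwise switch on growth genes. The larval fat body is the fly's counterpart of liver and adipose tissue: it stores triglyceride and glycogen, secretes the larval serum proteins, releases antimicrobial peptides and reports nutrient state to the endocrine organs.

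The libraries held 21918672 counts for the control, 23227940 for Hpo overexpression and 23524682 for Hpo knockdown. In each of them Lsp1beta, a larval serum protein, was the most abundant gene, with 7.36% to 8.77% of all counts. Since each genotype had 1 library, genotypes could not be tested against each other, and no p-value is given. Ratios are Dcg > Hpo over Dcg > Hpo-RNAi after TMM scaling, and their 95% intervals are exact Clopper-Pearson intervals of the split of a gene's counts between both libraries. These intervals cover counting error only, not the spread between animals or dissections. A gene was called higher or lower in Dcg > Hpo when its ratio reached 2 or fell to 0.5 and the interval did not hold 1. Counts written as 3 numbers in a row are those of Dcg/+, Dcg > Hpo and Dcg > Hpo-RNAi, in that order. Where a library had 0 counts, the fold is given as a lower bound against a floor of 3 counts in that library. In bulk RNA of this kind, fewer cells of a type and less RNA per cell cannot be told apart.

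The hpo transcript itself was at 289 counts in the control, 11568 with overexpression and 182 with knockdown. The exact Poisson 95% intervals of these counts were 257 to 324, 11358 to 11781 and 157 to 210, so that the 3 libraries stood apart in the order their labels give. Dcg > Hpo exceeded Dcg > Hpo-RNAi by 60.6-fold (52.4 to 70.6). The gene Rep overlaps hpo in the annotation and was not called, at 172 counts with overexpression and 114 with knockdown, a ratio of 1.44 (1.13 to 1.84).

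Over all 9256 measured genes, 3438 or 37.1% were called, 1415 of them higher in Dcg > Hpo (15.3%) and 2023 lower (21.9%). The shares of 15.3% and 21.9% are the background for the calls of every gene list below. The median log2 ratio was -0.07, with quartiles of -0.78 and 0.56, and 4281 genes (46.3%) lay within 1.5-fold. The tails were long and unequal. Ratios of 8-fold or more were found for 450 genes in the higher and 1243 in the lower direction, and ratios of 100-fold or more for 99 and 649. The excess on the lower side came from genes that were nearly silent in Dcg > Hpo: 500 measured genes had 0 counts in Dcg > Hpo and 77 had 0 counts in Dcg > Hpo-RNAi. Among the 6704 genes with 50 or more counts in both libraries, 647 were called higher (9.65%) and 558 lower (8.32%). In weight, the genes called higher took 9.73% of the Dcg > Hpo counts and 1.56% of the Dcg > Hpo-RNAi counts, and those called lower 2.53% and 8.83%. Rows at the edge of the filter, whose larger count was exactly 50, numbered 55 and had a median log2 ratio of -0.28, while the 51 rows just outside it, at 49, had one of 0.02.

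**Figure D1:**
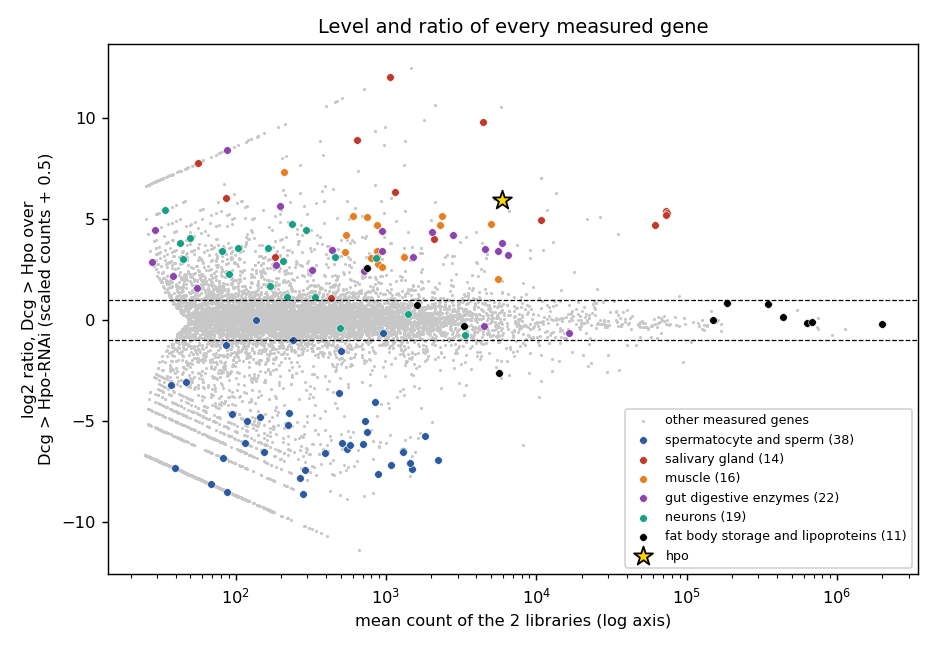
Each point is one of the 9256 measured genes, with the mean count of Dcg > Hpo and Dcg > Hpo-RNAi on a log axis and the log2 ratio on the vertical axis; coloured points are members of 6 gene lists, the star is hpo, and dashed lines mark 2-fold. Spermatocyte and sperm genes sit in the lower arm, salivary gland, muscle, gut and neuronal genes in the upper arm, and the storage proteins of the fat body at the right near 0.

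The storage and lipoprotein genes of the larval fat body had nearly the same summed level in the pair, while single members differed. The 11 genes of the storage and lipoprotein list took 19.4% of all counts with overexpression, 18.5% with knockdown and 18.9% in the control. Lsp1beta had 1612401 counts in the control, 1895967 with overexpression and 2063983 with knockdown, a ratio of 0.876. Lsp1alpha gave a ratio of 0.929. The apolipophorin precursor Rfabg, the main carrier protein of lipid in the blood, was at 240244 and 128000 counts, a ratio of 1.79 that stayed under the threshold. The list held 1 gene called in each direction. Apoltp, which encodes a lipid transfer particle protein, was at 354 counts in the control, 1285 with overexpression and 208 with knockdown, 5.89-fold higher in Dcg > Hpo (5.09 to 6.86). NLaz, an apolipoprotein D homolog, was at 6312, 1608 and 9611 counts, 6.27-fold higher in Dcg > Hpo-RNAi. Lsp1gamma, a larval serum protein, had a ratio of 1.72.

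Other genes of the Hippo pathway differed little. Of 18 measured components, 3 were called higher in Dcg > Hpo, hpo included, and 0 lower, with a median log2 ratio of 0.36 against -0.07 over all measured genes. The transcript of yki, the pathway's effector, was at 175 counts in the control, 182 with overexpression and 75 with knockdown, a ratio of 2.31 (1.76 to 3.07), with the control close to Dcg > Hpo. The gene d (dachs), an atypical myosin of the Fat branch, was at 11, 104 and 30 counts, a ratio of 3.31 (2.18 to 5.14). The kinase Tao, which acts above hpo, was at 958 and 713 counts in the pair, a ratio of 1.28. The apical determinant crb came close to the threshold, at a ratio of 1.96. Of 13 Yorkie target genes 8 were measured and 1 was called, dm (Myc), at 591, 2615 and 836 counts, 2.98-fold higher in Dcg > Hpo (2.76 to 3.23). The remaining 7 had ratios between 1.15 and 1.92, kibra at 1.45 and E2f at 1.92 among them. No measured target was called lower in Dcg > Hpo.

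The enzymes that build fatty acids and triglyceride had higher transcript levels in Dcg > Hpo. Of 16 measured genes 9 were called higher and 0 lower, 56.2% against 15.3% of all measured genes, and 15 of the 16 had 50 or more counts in both libraries. The fatty acid synthase gene CG3523 (FASN1) was at 2874 counts in the control, 5124 with overexpression and 549 with knockdown, a ratio of 8.90 (8.15 to 9.74). ATPCL, the citrate lyase that supplies acetyl-CoA, was at 1672, 5448 and 1730 counts, a ratio of 3.00 (2.85 to 3.17). HLH106 (SREBP), the transcription factor of lipid synthesis genes, was at 495, 694 and 203 counts, a ratio of 3.26 (2.78 to 3.83). In these 3 genes the control lay on different sides: near Dcg > Hpo-RNAi for ATPCL and nearer to Dcg > Hpo for CG3523 and HLH106. Desat1, a fatty acid desaturase, had a ratio of 2.15. Malic enzyme (Men), which makes NADPH, had one of 2.83, and mdy, a diacylglycerol acyltransferase, one of 2.88. A further fatty acid synthase gene, CG17374 (FASN3), had 230 counts in Dcg > Hpo against 13 in Dcg > Hpo-RNAi and 4 in Dcg/+.

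Lipid droplet and lipase genes showed no common direction, with 1 called higher and 1 lower of 10 and a median log2 ratio of 0.09. The droplet coat genes Lsd-1 and Lsd-2 had ratios of 0.937 and 1.20, and bmm, the adipose triglyceride lipase homolog, one of 1.83. Lip4, an acid lipase gene, was called higher at 419, 1022 and 418 counts, a ratio of 2.33. The lipase gene CG5966 was the strongest difference of the list, at 2286 counts in the control, 420 with overexpression and 4207 with knockdown, 10.5-fold higher in the knockdown. Of 16 genes of fatty acid oxidation 0 were called higher and 2 lower. These were srl, the PGC-1 homolog, at 84, 44 and 168 counts (ratio 0.25), and CG10399, a hydroxymethylglutaryl-CoA lyase gene, at 405, 225 and 531 counts (ratio 0.404). The trifunctional and acyl-CoA dehydrogenase genes were uncalled, with all uncalled ratios of the list between 0.545 and 1.54.

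Of 17 glycolytic and gluconeogenic genes 6 were called higher in Dcg > Hpo and 1 lower. Their log2 ratios had a median of 0.65, while their summed level had a ratio of 1.01. Lactate dehydrogenase, listed as ImpL3, was the extreme member, at 91 counts in the control, 2686 with overexpression and 126 with knockdown, a ratio of 20.3 (17.0 to 24.5). Gapdh2 was at 4664, 8643 and 3223 counts, a ratio of 2.56, and pyruvate kinase (PyK) at 691, 2086 and 849 counts, a ratio of 2.34. For ImpL3 and PyK, as for Pgi and Pglym78, the control was close to the knockdown. The member called lower was CG10924 (Pepck2), which works in the gluconeogenic direction, at 40995, 24352 and 55423 counts, a ratio of 0.419. Its 55423 counts were part of the list's 117887 in the knockdown, so that it weighed heavily on the ratio of the summed level. Of 9 glycogen and trehalose genes 4 were called higher: the branching enzyme AGBE at 4.61, glycogen phosphorylase GlyP at 4.56, glycogen synthase GlyS at 3.71 and trehalase Treh at 2.02. The members called higher thus held both synthesis and breakdown enzymes of glycogen, while UGP (1.26) and CG9485 (1.14) were uncalled. The alpha-glucosidase tobi was called lower, at 69, 16 and 64 counts.

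In insulin and TOR signalling 2 of 15 genes were called higher (13.3%) and 1 lower (6.67%). Over all measured genes the shares were 15.3% and 21.9%, so the list as a whole did not exceed them. Tor, the growth kinase, was at 173 counts in the control, 202 with overexpression and 53 with knockdown, a ratio of 3.64 (2.67 to 5.02). The insulin receptor substrate chico was at 78, 99 and 35 counts, a ratio of 2.70. Both had their low value in the knockdown. Thor, the translation inhibitor 4E-BP and a FOXO target, was at 16921, 6340 and 14424 counts, a ratio of 0.419 (0.407 to 0.432), with its low value in the overexpression.

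Genes of purine synthesis stood out among the abundant genes called lower, and the pathway was listed for that reason after its values were seen. Of 10 genes of de novo purine synthesis 5 were called lower in Dcg > Hpo and 1 higher. The trifunctional enzyme gene ade3 was at 23808 counts in the control, 5768 with overexpression and 22514 with knockdown, a ratio of 0.244 (0.237 to 0.252). CG11089, which encodes the enzyme of the last steps to IMP, was at 23116, 7818 and 36496 counts, a ratio of 0.204. AdSL, the adenylosuccinate lyase gene, was at 2233, 663 and 5419 counts, a ratio of 0.117. For all 3 the control was on the side of the knockdown. The other members called lower were ade2 (0.242) and ras, the IMP dehydrogenase gene (0.327). The exception was AdSS, adenylosuccinate synthase, which was 2.6-fold higher in Dcg > Hpo. Of 6 enzymes of the folate one-carbon cycle and its glycine branch, listed in the same way, 3 were called lower: Nmdmc at 862, 100 and 1989 counts (ratio 0.0480), pug at 0.319 and the serine hydroxymethyltransferase gene CG3011 at 0.297. Nmdmc overlaps Rel, which was not called, at a ratio of 0.635. Glycine N-methyltransferase (CG6188), which consumes S-adenosylmethionine, went the other way, at 1718, 4237 and 588 counts, a ratio of 6.87; it overlaps CG43630, whose ratio was 5.84.

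**Figure D2:**
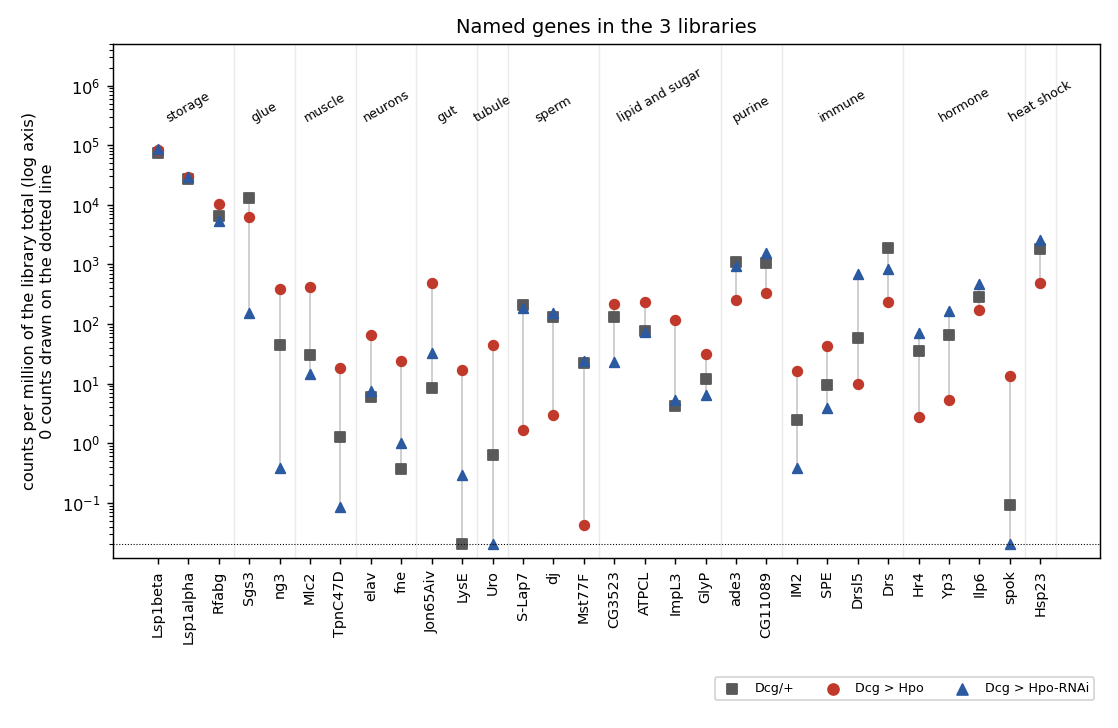
CPM (counts scaled to the library total) on a log axis for 30 named genes in Dcg/+ (squares), Dcg > Hpo (circles) and Dcg > Hpo-RNAi (triangles); a count of 0 is drawn on the dotted line. The storage proteins lie close together, sperm and purine genes have Dcg > Hpo alone at the bottom, and muscle, gut and neuronal genes have Dcg > Hpo alone at the top.

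Hormone-related genes differed in both directions. Among 10 regulators of the ecdysone response 2 were called higher (20%) and 4 lower (40%), against 15.3% and 21.9% of all measured genes. The nuclear receptor gene Hr4 was at 785 counts in the control, 64 with overexpression and 1691 with knockdown, 27.7-fold higher in the knockdown. Eip78C was at 1017, 220 and 1356 counts, 6.46-fold higher in the knockdown, and Hr46 (Hr3) at 261, 40 and 162, 4.25-fold higher. These 3 receptors, which act in the ecdysone cascade before pupation, had their low value in Dcg > Hpo. In contrast ftz-f1, which follows Hr3 in the prepupal cascade, was at 119, 281 and 69 counts, a ratio of 3.88, and EcR at a ratio of 2.03. Eip75B lay at the threshold with a ratio of 0.498 and lost its call under 4 other scalings. Among the 9 ecdysone-inducible effector genes measured, 4 were called lower (44.4%) and 1 higher (11.1%), the latter again ImpL3.

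Of 8 measured steroid-synthesis genes, most of them known from the prothoracic gland, 5 were called higher and 1 lower, but just 3 of the 8 had 50 or more counts in both libraries. The cytochrome P450 gene spok was at 2 counts in the control, 311 with overexpression and 0 with knockdown, at least 98.9-fold higher. The hydroxylase gene phm was at 0, 172 and 0 counts, at least 54.7-fold higher. dib and sad were called higher too, with ratios of 6.68 and 11.4. These 4 genes mark an endocrine gland and not fat cells. sro, a dehydrogenase gene of the same pathway, behaved otherwise, at 1954, 689 and 2120 counts, a ratio of 0.310. It overlaps the gene Rnb in the annotation, and which gene its reads came from was not tested. Among the neuropeptide and hormone transcripts 17 were measured, with 10 calls higher and 1 lower, and 8 of the 17 had 50 or more counts in both libraries. Ilp2, the insulin-like peptide of the brain, was at 0, 196 and 0 counts, at least 62.3-fold higher, and Ilp5 at 10, 117 and 8 counts, a ratio of 13.9. The single member called lower was Ilp6, the insulin-like peptide of the fat body, at 6173, 3962 and 10948 counts, a ratio of 0.345 (0.333 to 0.358). The yolk protein gene Yp3 was at 1452, 122 and 3918 counts, 33.7-fold higher in the knockdown.

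Immune genes were called in both directions. Of 13 measured Bomanin and immune-induced peptide genes, which are targets of the Toll pathway, 11 were called higher in Dcg > Hpo and 1 lower, with a median log2 ratio of 4.29. Only 4 of the 13 had 50 or more counts in both libraries, and the others entered through the library where they were high, which fixed their direction. IM2 was at 54 counts in the control, 384 with overexpression and 9 with knockdown, a ratio of 40.7 (21.2 to 89.7). IM3 was at 105, 612 and 26 counts, a ratio of 22.5. The more abundant CG16712 (IM33) was at 9257, 30013 and 5595 counts, a ratio of 5.12. In all 3 genes the control lay between the libraries of the pair. Of 13 Toll pathway genes 2 were called higher (15.4%) and 0 lower. That share was near the 15.3% of all measured genes, and the list's median log2 ratio was -0.08. The genes called were SPE, the protease that activates the Toll ligand, at 208, 1011 and 90 counts (ratio 10.7), and spz, the ligand, at 685, 969 and 279 counts (ratio 3.31). The other 11 Toll pathway genes were uncalled. IM18 was the exception among the peptides, with a ratio of 0.405.

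The antimicrobial peptides were split, with 4 of 8 called lower, 2 higher and the other 2 at ratios of 1.65 and 1.87. Drosomycin-like Drsl5 was at 1265 counts in the control, 229 with overexpression and 16192 with knockdown, 74.1-fold higher in the knockdown (65.1 to 84.8). Dro was at 30, 164 and 3244 counts, 20.7-fold higher in the knockdown. Both had their high value in the knockdown alone. Drs, the antifungal drosomycin, was at 41052, 5471 and 19840 counts (ratio 0.263) and Dpt at 1256, 122 and 871 (ratio 0.134), so that here Dcg > Hpo was the low library. DptB and AttC were called higher in Dcg > Hpo, with ratios of 5.28 and 2.49. The stress peptides TotA and TotC had ratios of 2.77 and 13.5, and Socs36E, a JAK-STAT target, was at 47, 368 and 69 counts, a ratio of 5.09.

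Blood cell genes that mark lamellocytes and crystal cells were higher in Dcg > Hpo, 5 of 6 measured with 0 lower, although 3 of the 6 had 50 or more counts in both libraries. atilla, the lamellocyte surface antigen, was at 16 counts in the control, 676 with overexpression and 11 with knockdown, a ratio of 58.6 (32.6 to 118). ItgalphaPS4, an integrin subunit of lamellocytes, was at 10, 582 and 14 counts, a ratio of 39.7. The crystal cell phenol oxidases PPO1 and PPO2 had ratios of 2.84 and 2.03. Plasmatocyte markers were nearer to balance, with 3 of 9 called higher and 1 lower. Hml and eater were higher at 2.71 and 2.57, and NimC2 was at 2262, 516 and 1062 counts, a ratio of 0.463. Of the basement membrane genes, which blood cells and fat body both express, 3 of 11 were called higher, among them vkg, a collagen IV chain, at 3.26 and Ppn (papilin) at 7.39, while perlecan (trol) had a ratio of 0.942.

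Heat shock and stress genes were lower in Dcg > Hpo in 8 of 18 cases (44.4%) and higher in 3 (16.7%). The shares over all measured genes were 21.9% and 15.3%. Hsp23 was at 40261 counts in the control, 11201 with overexpression and 59513 with knockdown, 5.57-fold higher in the knockdown. Hsp27 was at 15396, 9718 and 30898 counts, 3.33-fold higher, and Hsp26 5.15-fold higher. The inducible Hsp70 genes disagreed with each other. Hsp70Ba was at 5, 37 and 277 counts, a ratio of 0.128, while Hsp70Aa and Hsp70Ab, which had the same 3 counts, were at 25, 115 and 23, a ratio of 4.77. These genes are near-identical copies, and how their reads were assigned is not given in the sources used here. Autophagy genes were called lower in 4 of 20 cases, a share of 20% near the 21.9% of all measured genes, and higher in 0. Those called lower included Atg1, the starting kinase, at 1316, 1253 and 2773 counts (ratio 0.431) and Atg8b, a germ line paralog, at 556, 14 and 845 (ratio 0.0158). The metallothioneins MtnA and MtnB were 13.1-fold and 11.3-fold higher in Dcg > Hpo.

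Detoxification enzymes varied gene by gene. Of 51 measured cytochrome P450 genes 17 were called higher (33.3%) and 8 lower (15.7%), against 15.3% and 21.9% of all measured genes. Cyp6a14 was at 40, 216 and 3 counts, a ratio of 68.7 (23.2 to 336), and Cyp4p2 at 0, 0 and 139, at least 48.6-fold higher in the knockdown. Abundant members were uncalled, such as Cyp6g1 at 0.669 and Cyp4d1 at 0.808. Of 28 glutathione transferase genes 10 were called higher and 3 lower. GstD1, a major member, had a ratio of 1.59 and GstE12 one of 1.33.

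Several lists of markers of tissues other than fat were strongly one-sided. Imaginal disc patterning genes, with 1 of 6 called each way, and plasmatocyte markers were not. All 14 measured genes of the salivary gland list were called higher in Dcg > Hpo, 7 of them with 50 or more counts in both libraries. The list took 2.53% of the Dcg > Hpo counts, 0.0688% of the Dcg > Hpo-RNAi counts and 5.16% of the Dcg/+ counts. The glue protein gene Sgs3 was at 280648 counts in the control, 144694 with overexpression and 3550 with knockdown, a ratio of 38.9 (37.6 to 40.2). Sgs5 was at 218437, 142119 and 3731 counts, a ratio of 36.3. For the glue genes proper the knockdown library was thus the one that stood apart. The gland genes ng1, ng2 and ng3 had another pattern, ng3 at 990, 8858 and 9 counts, a ratio of 939, and ng2 at 71, 2123 and 0 counts, at least 675-fold higher. The part of salivary gland RNA in the other differences was not tested.

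Muscle, gut, neuronal and Malpighian tubule genes shared a pattern in which Dcg > Hpo stood above both other libraries. All 16 measured muscle genes were called higher, 13 of them with 50 or more counts in both libraries, and the list took 0.192% of the counts in Dcg > Hpo against 0.0179% in Dcg > Hpo-RNAi and 0.0277% in Dcg/+. Mlc2, a myosin light chain, was at 668, 9641 and 338 counts, a ratio of 27.2 (24.4 to 30.4). TpnC47D, a troponin C, was at 28, 419 and 2 counts, a ratio of 199.8 (55.0 to 1655). In the gut list 20 of 22 were called higher, 15 of the 22 having 50 or more counts in both libraries. The serine protease gene Jon65Aiv was at 185, 11143 and 759 counts, a ratio of 14, and the lysozyme gene LysE at 0, 389 and 7, a ratio of 53. Mal-A5, a maltase, was an exception at 0.635. Of the neuronal genes 16 of 19 were called higher, and 8 of the 19 had 50 or more counts in both libraries. Those called higher included brp, the active zone protein, at 10, 67 and 1 counts (ratio 63.9, 11.1 to 2561) and fne, an RNA-binding protein of neurons, at 8, 563 and 24 (ratio 22.4). Syt1 was not, at a ratio of 0.588. Of 7 tubule genes 6 were called higher, led by urate oxidase (Uro) at 14, 1027 and 0 counts, at least 327-fold higher, but 2 of the 7 had 50 or more counts in both libraries. In all these lists a gene under 50 counts in one library needed 50 or more in the other to be measured.

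Cuticle genes, which belong to the epidermis, were called higher in 15 of 21 measured cases and lower in 2, and 12 of the 21 had 50 or more counts in both libraries. Lcp1 was at 12189, 66505 and 3286 counts, a ratio of 19.3, and the cuticle list as a whole took 1.11% of the Dcg > Hpo counts against 0.381% in Dcg > Hpo-RNAi and 0.454% in Dcg/+. Cpr49Ac, the most abundant member, was uncalled at 70206, 45407 and 81396 counts. Lcp65Ab1 and Lcp65Ab2 had the same 3 counts and a ratio of 131. Together the cell type lists held 201 measured genes, of which 115 were called higher and 46 lower. Outside them, 1300 of 9055 genes (14.4%) were called higher and 1977 (21.8%) lower. That these lists held few of the calls follows from their small size. The part of other tissues' RNA in the remaining calls was not tested.

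**Figure D3:**
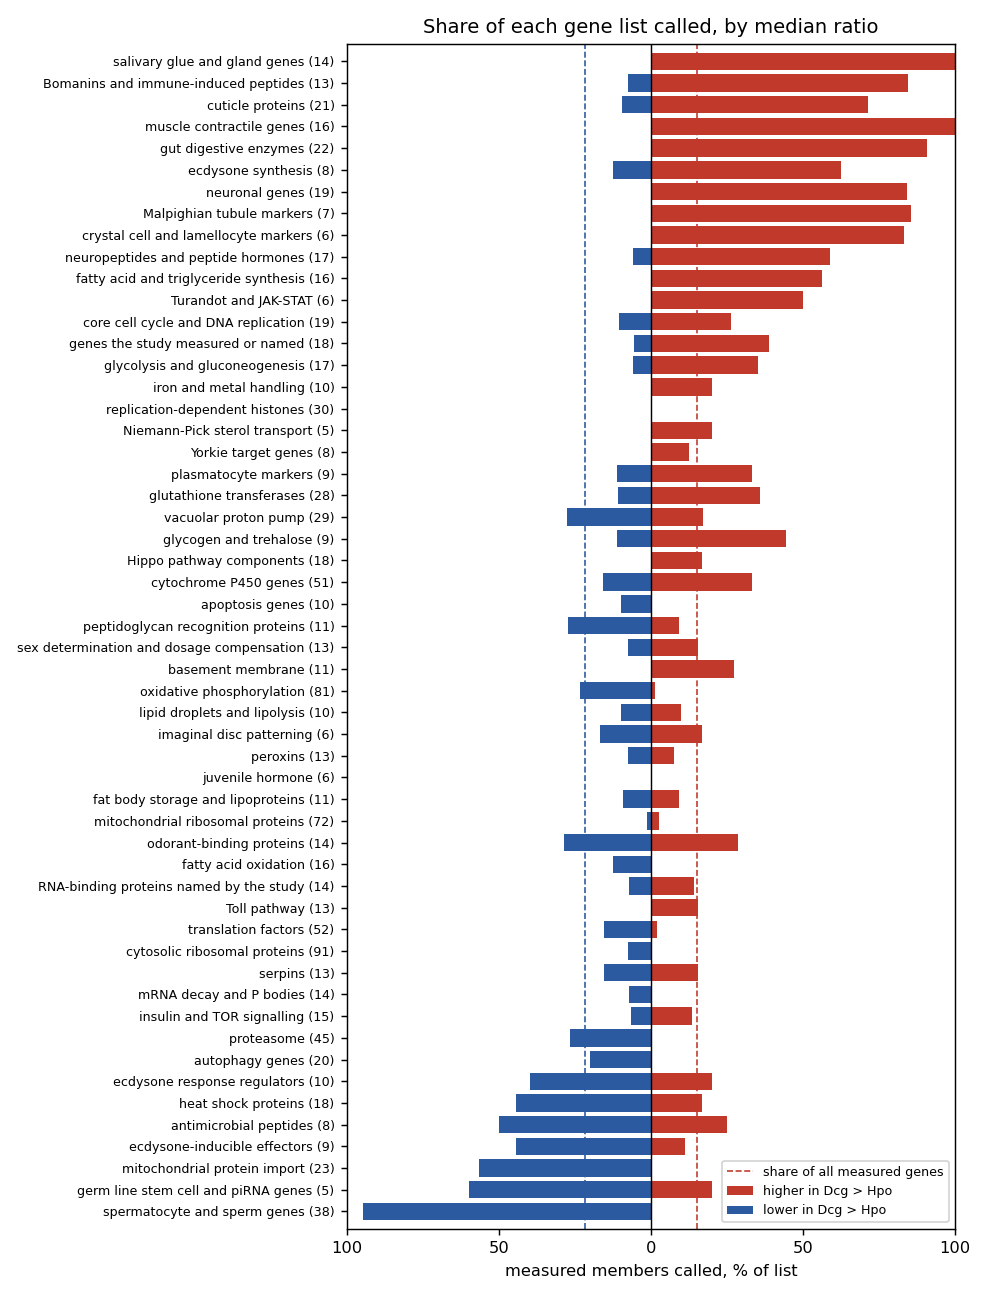
Share of the measured members of each gene list called higher (right) or lower (left) in Dcg > Hpo, ordered by the list's median log2 ratio, with the number measured in brackets; only lists with 5 or more measured members are drawn, and dashed lines mark 15.3% and 21.9%, the shares over all measured genes. Salivary gland and muscle lists reach 100% on the right, and the spermatocyte and sperm list 94.7% on the left.

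The clearest group called lower was that of male germ line genes. Of 38 measured spermatocyte and sperm genes 36 were called lower in Dcg > Hpo and 0 higher. Their median log2 ratio was -6.12, and 8 of the 38 had 50 or more counts in both libraries. In larvae the testis lies embedded in the fat body. Their summed share was 0.00885% of counts in Dcg > Hpo, 0.173% in Dcg > Hpo-RNAi and 0.154% in Dcg/+. The sperm aminopeptidase gene S-Lap7 was at 4520 counts in the control, 38 with overexpression and 4423 with knockdown, 122-fold higher in the knockdown. dj (don juan), a protein of the sperm tail, was at 2858, 69 and 3573 counts, 54.3-fold higher. Mst77F, a sperm chromatin protein, was at 480, 1 and 560 counts, 587-fold higher with a wide counting interval (105 to 23230). In all 3 the control equalled the knockdown to within 1.5-fold. The Y-linked fertility genes, 15 rows, had 71, 28 and 144 counts in all and none was measured. The part of testis RNA in the other calls was not tested. The chromosome-coating RNA roX1, a dosage compensation gene of males, was at 7467, 2514 and 3266 counts, a ratio of 0.734.

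Large cell machines held members called lower in Dcg > Hpo, many of them paralogs of more abundant subunits. Over all measured genes 21.9% were called lower. A gene under 50 counts in Dcg > Hpo was measured only through 50 or more in the knockdown, so it could not be called higher. The reverse held for a gene under 50 counts in the knockdown. For such genes the shares below were not free to go either way. Of 91 cytosolic ribosomal protein genes 84 had ratios between 0.703 and 1.75. The 7 called lower (7.69%) were paralogs, such as RpS10a at 304, 4 and 388 counts, 102-fold higher in the knockdown, and RpL22-like at 184, 0 and 119 counts, while other paralogs were uncalled, among them RpS14b at a ratio of 1.05, RpL34a at 1.13 and RpL24-like at 0.86. Of 45 proteasome genes 33 lay between 0.671 and 1.40, and the 12 called lower (26.7%) all carry an R or T suffix in their names, which marks the paralogs of this complex that are known from the testis. Prosalpha4T2, for example, was at 217, 0 and 323 counts, at least 113-fold higher in the knockdown. All 12 had under 50 counts in Dcg > Hpo, so none of them could have been called higher. In oxidative phosphorylation 19 of 81 genes (23.5%) were called lower, a share near that of all measured genes, and 1 higher. CG10396, whose current symbol is COX4L, was at 559, 0 and 687 counts, at least 240.1-fold higher in the knockdown, while the abundant subunit CoVIb had a ratio of 1.44 and CG1746 (ATPsynC) one of 1.999, just under the threshold. Calls were not limited to paralogs there: CG15434 (ND-B8), a complex I subunit gene, was called lower at 89, 18 and 130 counts, a ratio of 0.132, and the member called higher was ATPsyn-beta, a core subunit of ATP synthase. Of 23 mitochondrial import genes 13 were called lower (56.5%). They included Tim17b1 at 246, 2 and 228 counts and tomboy20 at 215, 5 and 306, whereas Tim17b itself had a ratio of 1.13. Most of the 13 also had under 50 counts in Dcg > Hpo, while Tim8, called lower too, was at 1470, 1086 and 2437. Of 52 translation factor genes 8 were called lower (15.4%), eIF4E-5 at 531, 5 and 739 counts among them, while the elongation factor EF2 had a ratio of 1.08. In the vacuolar proton pump 8 of 29 were called lower (27.6%), Vha16-5 at 274, 0 and 321 counts for one, and 5 higher, Vha100-2 at 283, 358 and 71 for another. Mitochondrial ribosomal protein genes, for comparison, had 2 calls higher and 1 lower among 72.

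**Figure D4:**
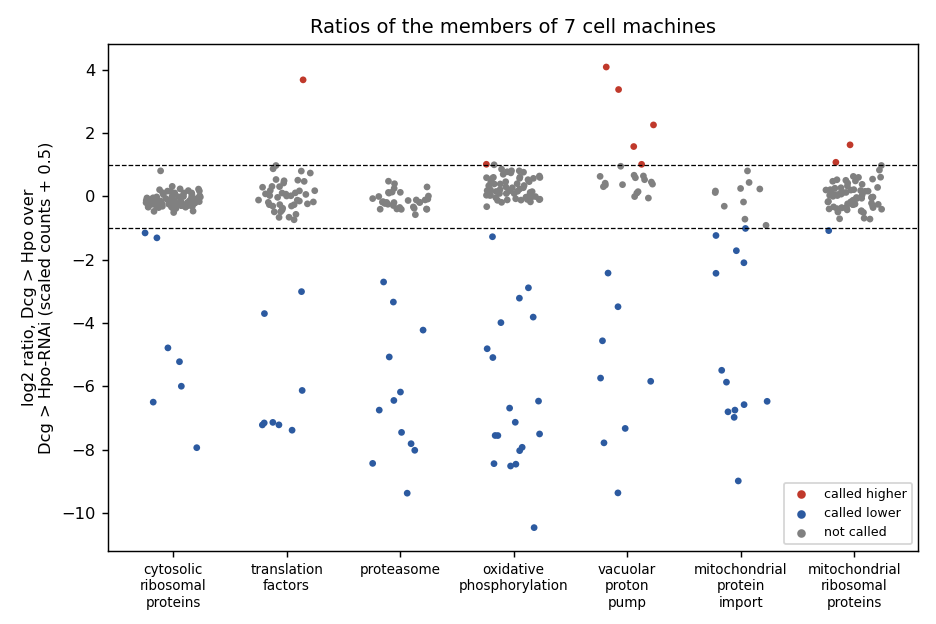
Log2 ratio of every measured member of 7 gene lists, called higher (red), called lower (blue) or not called (grey), with dashed lines at 2-fold; points are spread sideways for legibility. Below the lines lie 13 of 23 members in mitochondrial import, 19 of 81 in oxidative phosphorylation and 1 of 72 in mitochondrial ribosomal proteins; above them lie 5 in the vacuolar proton pump, 2 in mitochondrial ribosomal proteins and 1 each in oxidative phosphorylation and translation factors.

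Proliferation genes showed a mixed pattern. Of 19 cell cycle and replication genes 5 were called higher and 2 lower. The replication genes Mcm6 and dpa were at 221 and 156 counts in Dcg > Hpo against 60 and 51 in Dcg > Hpo-RNAi, ratios of 3.51 and 2.92, and the phosphatase gene stg had a ratio of 2.70. The mitotic cyclin genes CycB and CycB3 were lower, at 0.331 and 0.456. Of 30 measured rows of replication-dependent histones 0 were called at the 2-fold threshold in either direction, and their median log2 ratio was 0.58; these repeated genes cannot be told apart by their reads. The 4 measured Hox genes and 6 juvenile hormone genes gave 0 calls as well.

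Genes that the study itself measured or named, which are no independent choice, gave 7 calls higher and 1 lower among 18. Besides hpo, Ilp2, Ilp5, mdy and Thor these were Ilp3, at 0, 54 and 0 counts and thus at least 17.2-fold higher, the cell cycle inhibitor dap at 2.27 and the kinase gene bsk (JNK) at 2.21. Akh, the adipokinetic hormone gene of the corpora cardiaca, had 0 counts in the control, 43 with overexpression and 0 with knockdown and fell short of the 50-count filter. The remaining measured genes of the 18 were uncalled. The paper gives me31B mRNA as elevated in Dcg > Hpo. Its comparisons were mainly with control animals, while the ratios here are against the knockdown, so they are unlike measures. By its figure legends the study scored Pxn by antibody staining, and measured foxo, S6k, eIF-4E and cnc in head homogenates with another driver. Here me31B was at 616, 591 and 667 counts, a ratio of 0.845 to the knockdown. Pxn, the study's blood cell marker, had a ratio of 0.975, Hsl one of 0.742 and foxo one of 0.694. Ratios were higher for AkhR (1.56), p53 (1.61), eIF-4E (1.43), S6k (1.42) and bmm (1.83), and cnc was nearly level. Of 14 RNA-binding protein genes named by the study, elav was higher at 8.30 and mod at 3.05. Fmr1 was lower at 0.366, while sqd had a ratio of 1.51. Of 14 genes of mRNA decay and P bodies 1 was called, the deadenylase gene twin, at 1361, 730 and 1522 counts (ratio 0.457).

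The remaining lists were mixed or nearly level. Of 14 odorant-binding protein genes 4 were called in each direction, Obp44a at 8.30 and Obp83cd at 0.150 among them, while the abundant Obp99b had a ratio of 1.06. Peptidoglycan recognition proteins, the sensors of bacterial cell wall, were called lower in 3 of 11 cases (27.3%) and higher in 1 (9.09%). The receptor PGRP-LC had a ratio of 0.416. Of 13 serpin genes, which inhibit proteases, 2 (15.4%) were called in each direction, against 15.3% higher and 21.9% lower of all measured genes. Peroxins had 1 call each way among 13, and of 10 apoptosis genes 1 was called lower, Ark, the caspase activator, at 0.376. Of 5 sterol transport genes Npc2h alone was called, at 558, 3078 and 296 counts (ratio 9.92), and of 10 metal handling genes the metallothioneins named above were the 2 called. Of 6 imaginal disc patterning genes 1 was called each way, and of 5 measured germ line stem cell and piRNA genes 3 were lower and bam was higher, at 140, 258 and 27 counts (ratio 9.11). Among 13 sex determination and dosage compensation genes fru and dsx were called higher, at 2.35 and 2.13, and Yp3, named above, was the 1 called lower.

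Among single genes chosen by the bound of their interval, those called higher lay on several arms and had mostly CG numbers for names. CG32198 was at 1400 counts in the control, 11662 with overexpression and 7 with knockdown, a ratio of 1589 (771 to 3953). CG11300 was at 3878, 4216 and 2 counts, a ratio of 2011 (556 to 16608), and CG10918 at 869, 2918 and 0, at least 928-fold higher. CG4367 differed in that the control was low too, at 1, 1422 and 0 counts. On the lower side CG1394 was at 852, 0 and 1314 counts, at least 459-fold higher in the knockdown, followed by Hsp60C at 680, 0 and 809 and w-cup, a gene transcribed after male meiosis, at 450, 0 and 740. All 12 genes leading on the lower side had 4 counts or fewer in Dcg > Hpo.

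Some abundant genes were called as well. Adh, alcohol dehydrogenase, was at 93775, 124422 and 52413 counts, a ratio of 2.26. The noncoding RNA CR40469 was at 19597, 37540 and 151903 counts, 4.24-fold higher in the knockdown. Glutamine synthetase (Gs1) was at 19890, 14552 and 45629 counts, 3.29-fold higher there, and these last genes were named after their values were seen. Genes were also grouped by the larger of their counts in the pair. Of the 289 genes at 10000 or more, 34 were called in each direction, 23.5% in all. Of the 1775 genes from 50 to under 100, 55.4% were called, and these passed the filter through their higher library. The share did not fall steadily in between. It was 27.8% from 300 to under 1000, 27.9% from 1000 to under 3000 and 31.0% from 3000 to under 10000.

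Calls were spread over all chromosome arms, with the small chromosome 4 apart from the rest. It had 70 measured genes, 22 of them higher (31.4%) and 2 lower (2.86%), and their log2 ratios had a median of 0.60, whereas the other arms had 13.9% to 16.6% higher and 17.5% to 25.9% lower. The muscle protein gene bt, at a ratio of 8.85, and ATPsyn-beta, at 2.02, were among its members called higher. Genes known only by a CG or CR number were called lower in 30.9% of 4673 cases and genes with a name in 12.7% of 4583, while the shares called higher were 14.5% and 16.1%. Noncoding and antisense RNAs were called lower in 95 of 268 cases (35.4%). Neighbouring genes were often called alike: 52 runs of 5 or more adjacent measured genes were called lower and 16 were called higher. The longest had 19 genes called lower on arm 2R, from RpL37b to CG9863, with 67 counts under overexpression and 3679 under knockdown. A run of 11 called higher on the same arm was the trypsin cluster from zetaTry to iotaTry, with 39782 and 3903 counts, and 8 Bomanin genes formed another. Of 9163 measured genes found in the annotation 5154 overlap another gene, and reads of overlapping genes may have been shared.

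The control library, though no denominator here, was placed against both libraries of the pair. Being a single preparation, it could not give the usual level of a gene. Its position therefore does not tell which genotype departed from that level. Of the 2023 genes called lower, 1817 (89.8%) had a Dcg/+ level within 2-fold of Dcg > Hpo-RNAi and 265 (13.1%) within 2-fold of Dcg > Hpo. Of the 1415 called higher, 797 (56.3%) were within 2-fold of the knockdown and 491 (34.7%) within 2-fold of the overexpression. The control lay above both libraries for 676 genes called lower and below both for 317 called higher.

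**Figure D5:**
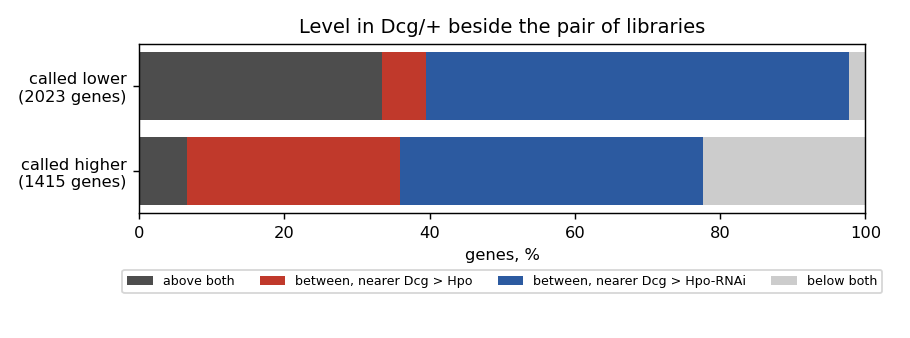
Share of the genes called lower (2023) and called higher (1415) in Dcg > Hpo whose Dcg/+ level lay above both libraries, between them and nearer to one of them on the log2 scale, or below both. Between-and-nearer-the-knockdown is the largest class in both bars, 58.1% and 41.7%.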

How the data were processed

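The authors deposited raw read counts per gene, not normalized, from QuantSeq 3′ libraries of 3 genotypes, with dm6 given as the build; RNA quality control and data analysis were done by a service company. The aligner, the counter and the strand setting are not given in the sources used here. From these counts, TMM factors of the pair were computed with edgeR 4.0.16 in R 4.3.3, and intervals with scipy 1.17.1 in Python 3.11.15. The log2 ratio used scaled counts plus 0.5. Genes were placed by an Ensembl annotation. Named genes were hpo, the 12 per direction with the interval bound farthest from 1 among those with 100 or more counts in the higher library, in each list the 4 with the largest change and the 2 with the most counts, the 5 most abundant genes, the study's own genes and 3 found only in the control; any other gene was named after its values were seen. Members and lists were chosen with earlier results of these data known. Older symbols were matched by hand and CG8336, which is no cytochrome, was left out of the P450 list, and Cpr, a P450 reductase gene, out of the cuticle list. Alternatives in scaling (limma 3.58.1, DESeq2 1.42.0 factors), filter and fold were tried. Intervals were tested on simulated data. No sequence was used. Libraries of 21918672 to 23524682 counts make counting error small for all but low genes.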

Additional observations from a re-analysis of the deposited data

Results flagged for a closer look

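Genes that reached 50 counts in the control library alone stood outside the comparison. There were 197 genes with 50 or more counts in Dcg/+ and fewer in both Dcg > Hpo and Dcg > Hpo-RNAi. The highest were CG42798, with 1226 counts in Dcg/+ against 14 and 31, CG14850 with 657 against 0 and 0, and CG42823 with 490 against 0 and 0. With 1 library per genotype, whether these genes mark the genotype or the single Dcg/+ preparation cannot be told apart.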

How the results depend on the processing

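No paired analysis was possible because each genotype has 1 library. The counts of 1415 genes called higher and 2023 lower moved with the filter and the fold. Without a filter they were 2283 and 3228; at 10 or more counts in either library 2142 were called higher and 3012 lower, and at 200 or more 733 higher and 867 lower, with 99 list members called lower in place of 172. A 1.5-fold threshold gave 2241 and 2719, and a 4-fold threshold 720 and 1465. Of alternatives chosen after seeing the data, genes that overlap no other gene gave 675 and 960 of 4009, and genes with 10 or more counts in all 3 libraries 939 lower against 1120 higher, which turned the order of the directions. Scaling changed less. The hpo ratio stayed between 60.6 and 68.1, the share of calls in the higher direction between 41.2% and 46.9%, and the median of all measured genes between -0.07 and 0.10. Of 320 named genes rescaled in 6 ways, scaling by ribosomal protein genes among them as a later addition, 0 reversed, 7 lost their call and 12 gained one under some scaling. The medians of the lists of fatty acid oxidation, Toll pathway, mitochondrial ribosomal proteins, odorant-binding proteins and the study's RNA-binding proteins changed sign with scaling, as did those of cytosolic ribosomal proteins and translation factors under the ribosomal protein scaling. One library per genotype is the main limit.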

Other observations

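For some genes called in the pair, the control lay far outside both libraries. Cyp6d5, a cytochrome P450 gene, was at 22756 counts in the control, 303 with overexpression and 3015 with knockdown, so that the 10.4-fold difference of the pair lay wholly below the control. For CG43166, at 3128, 1463 and 19398 counts, the control lay between the libraries of the pair. The same held for Ama, an adhesion protein gene, at 8834, 2428 and 19087. Identical counts recurred in the table: 117 measured rows shared all 3 counts with another row, 62 of them called, and 74 shared them with the row next to it. Counting such rows once gave 1406 genes called higher and 1999 lower.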
